A study of Mus musculus with 18 samples.

Results

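The serum amyloid A genes Saa1, Saa2 and Saa3 were described across the 6 groups of BMDMs (bone marrow-derived macrophages, grown from C57BL/6 bone marrow in medium conditioned by L929 cells). They are 3 of the 22852 gene symbols counted in each library, were taken by symbol, and all 3 were among the 11305 genes that passed the expression filter. The genes were selected on the counts of these same 18 libraries, the increase of Saa3 with LPS among them. Their levels and log2FC are therefore given as a description, with no test. Unstim BMDMs received no agent. LPS100 BMDMs were primed with Salmonella LPS at 100 ng/ml for 24 h. Tol BMDMs were primed in the same way and then received fresh medium with LPS at 10 ng/ml for 3 h. LPS100-Carbo25 and Tol-Carbo25 BMDMs were treated like LPS100 and Tol, with 25 µM carboplatin, a platinum drug that crosslinks DNA, added 1 h before priming. LPS10 BMDMs received a single dose of LPS at 10 ng/ml, which lasted 3 h in the protocol drawing of the study and has no time in the sample labels. Dose and time therefore differ together between LPS10 and LPS100, and no group received fresh medium without LPS after priming. Each group has 3 biological replicates.

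Serum amyloid A proteins are small apolipoproteins of the acute phase response that travel on high-density lipoprotein (HDL). In mice, Saa1 and Saa2 are made mainly by the liver when IL-1, IL-6 and TNF reach it, whereas Saa3 is the form made outside the liver, by macrophages and adipocytes among other cells. The transcription factors NF-κB and C/EBP act on SAA promoters, STAT3 takes part downstream of IL-6, and the proteins signal through receptors such as FPR2 and TLR2.

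The 3 genes lie in 1 cluster with Saa4, which spans 42.3 kb of chromosome 7 in GRCm39 (GENCODE vM39). Saa3 covers chr7:46361422-46365576 and Saa1 chr7:46389916-46392547, both on the minus strand, and Saa2 covers chr7:46401214-46403737 on the plus strand. The canonical transcript of each has 4 exons. The 94.8% identity of the Saa1 and Saa2 transcripts, over 649 aligned bases, is far above the 69.2% of Saa1 with Saa3 and the 73.7% of Saa2 with Saa3. Of the 50-base windows of the Saa1 transcript, 51 of 708 are also found in Saa2 and 9 are also found in Saa3. Saa2 and Saa3 share 0 of 603 such windows, and no window of 150 bases, the read length, is shared between members. Short matches can therefore fit both Saa1 and Saa2, or both Saa1 and Saa3, and the split between Saa1 and Saa2 and the low counts of Saa1 beside the very high counts of Saa3 are uncertain for this reason. How many reads were placed on the wrong member was not tested. A long noncoding gene, Gm74180, overlaps Saa1 on the same strand and Saa2 on the opposite strand and was not counted.

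The 250 bases before the start of each gene are shown because the 3 members differ in level although all were higher after LPS priming. They were taken from RefSeq (GRCm38.p6) and match GRCm39 exactly once each, at chr7:46392405-46392654 (minus strand), chr7:46401007-46401256 (plus strand) and chr7:46365101-46365350 (minus strand). The RefSeq starts lie downstream of the outermost GENCODE starts given above, so part of the Saa1 and Saa2 stretches and the whole Saa3 stretch fall within the annotated gene body. All motif matches of Saa3 lie within it, as do the NF-κB match of Saa1 and the C/EBP match that overlaps it. Capitals mark matches to a relaxed NF-κB consensus or to the C/EBP motif TTNNGNAA, searched on both strands.
Saa1: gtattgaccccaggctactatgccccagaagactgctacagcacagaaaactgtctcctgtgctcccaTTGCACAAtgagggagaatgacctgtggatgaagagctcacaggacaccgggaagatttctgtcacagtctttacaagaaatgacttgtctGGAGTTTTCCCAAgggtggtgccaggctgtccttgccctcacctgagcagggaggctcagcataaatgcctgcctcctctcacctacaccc
Saa2: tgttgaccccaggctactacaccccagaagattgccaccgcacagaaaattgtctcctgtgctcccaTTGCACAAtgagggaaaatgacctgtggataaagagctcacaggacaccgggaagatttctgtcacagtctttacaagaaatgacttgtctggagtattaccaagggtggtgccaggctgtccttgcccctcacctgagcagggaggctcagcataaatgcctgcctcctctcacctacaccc
Saa3: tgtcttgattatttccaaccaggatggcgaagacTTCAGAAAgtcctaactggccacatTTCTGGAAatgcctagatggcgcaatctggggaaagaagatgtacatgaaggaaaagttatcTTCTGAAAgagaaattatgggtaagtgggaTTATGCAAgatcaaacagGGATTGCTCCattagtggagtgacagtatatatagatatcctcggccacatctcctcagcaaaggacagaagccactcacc
In Saa1 the NF-κB match GGAGTTTTCC stands at -91 to -82 from the start and overlaps a C/EBP match at -86 to -79. The Saa2 window at the same place reads GGAGTATTAC, which differs from that of Saa1 by T6A and C9A (the base of Saa1 first, counted from base 1 of the window), and it matches neither motif. The rest of the window is nearly the same, with 287 of 299 aligned bases (96.0%) identical between the Saa1 and Saa2 sequences of 250 bases before to 50 after the start. Saa3 holds an NF-κB match, GGATTGCTCC, at -81 to -72 and 4 C/EBP matches, of which the nearest to the start is TTATGCAA at -99 to -92. None of the 3 holds the strict NF-κB consensus, the STAT motif TTCNNNGAA or TATAAA. Among 32851 RefSeq promoters of 250 bases before to 50 after the start, 26.8% hold the relaxed NF-κB consensus and 40.7% the C/EBP motif. The strict NF-κB consensus is held by 8.5%, the STAT motif by 8.3% and TATAAA by 13.6%. These matches describe letters and were not related to binding.

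Between 6869667 and 14708099 read pairs per library were counted on genes, so that a count of 0 allows up to 0.204 to 0.437 CPM (counts scaled to one fixed total per library), which is 3 counts in that library and covers counting error only. The 7 macrophage markers passed the filter and summed to 11164 to 28898 CPM in every library. Markers of other cells that can make serum amyloid A were low. The 8 hepatocyte markers summed to at most 0.714 CPM, with Ttr, Apoa1, Ahsg and Fgb at 0 throughout, the 4 adipocyte markers to at most 0.291, the 4 epithelial markers to at most 3.34 and the 6 fibroblast markers to at most 8.04. The 7 neutrophil markers summed to 0.935 to 1.65 in Unstim and to 4.01 to 58.4 in the LPS groups, with Ly6g and Mpo at 0 in all 18 libraries. The 3 T cell markers were at 0, and the B cell (4 genes) and dendritic cell (3 genes) lists reached at most 2.22 and 1.19. The neutrophil, epithelial and fibroblast sums were higher in the primed groups than in Unstim, and their part in the members' levels was not tested. In bulk RNA, fewer cells that transcribe a gene and less RNA per cell cannot be told apart.

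Saa3 was detected in unstimulated BMDMs and became one of the most abundant transcripts after LPS priming. Its raw counts in Unstim were 1294, 891 and 1221 for replicates 1, 2 and 3. After the single 10 ng/ml dose (LPS10) they were 10054, 15893 and 17798. The LPS100 libraries held 463786, 374690 and 519130 counts of Saa3. All 3 groups were apart from each other, with no overlap of the normalized counts (counts scaled to a common effective library size). In Tol BMDMs the counts were 350645, 569002 and 504676. With carboplatin they were 318581, 460325 and 506242 in LPS100-Carbo25 and 312386, 397152 and 483887 in Tol-Carbo25. The 4 groups that had been primed for 24 h overlapped with each other and lay far above LPS10.

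As normalized counts, Saa3 averaged 1026 ± 264 in Unstim, 13514 ± 3528 in LPS10, 468169 ± 35824 in LPS100, 457434 ± 45045 in LPS100-Carbo25, 484963 ± 38164 in Tol and 435426 ± 22684 in Tol-Carbo25 (mean ± SD, n = 3 in each group). In ascending order the groups were Unstim, LPS10, Tol-Carbo25, LPS100-Carbo25, LPS100 and Tol. Neighbours in this order differed by less than their pooled SD from Tol-Carbo25 upwards, and by 4.99 and 26.0 pooled SDs at the first and second steps. Saa3 took 0.0130% ± 0.0033 of all counts in Unstim, 0.135% ± 0.036 in LPS10 and 5.02% ± 0.38 in LPS100. By counts per kb of exon, Saa3 ranked 646 to 1102 among all genes in Unstim, 45 to 75 in LPS10, and first or second in all 12 libraries primed with LPS.

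Saa1 was not detected in unstimulated BMDMs, with 0 counts in all 3 libraries. The single dose gave 52, 29 and 38 counts in replicates 1, 2 and 3 of LPS10, and priming gave 146, 72 and 108 in LPS100. Tol BMDMs held 116, 92 and 77 counts. Libraries with carboplatin were the highest of each pair, with 179, 134 and 158 counts in LPS100-Carbo25 and 170, 121 and 145 in Tol-Carbo25. The normalized counts averaged 39.9 ± 21.1 in LPS10, 113 ± 37.6 in LPS100, 102 ± 39.0 in Tol, 165 ± 50.5 in Tol-Carbo25 and 176 ± 59.7 in LPS100-Carbo25 (SD, n = 3). LPS10 did not overlap with any primed group, and the 4 primed groups overlapped with their neighbours in the order.

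Saa2 was at the edge of detection. It had 0 counts in all Unstim libraries and 0, 3 and 1 in LPS10. After priming the counts were 5, 11 and 14 in LPS100, 2, 10 and 25 in LPS100-Carbo25, 4, 9 and 9 in Tol and 0, 15 and 5 in Tol-Carbo25. The normalized counts averaged 10.3 ± 4.36 in LPS100, 12.4 ± 11.5 in LPS100-Carbo25, 7.37 ± 2.13 in Tol and 7.22 ± 8.84 in Tol-Carbo25 (SD, n = 3), and at these counts no order of the primed groups can be read. Saa4, the constitutive family member of the cluster, reached at most 5 counts in any library and was not tested.

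**Figure D1:**
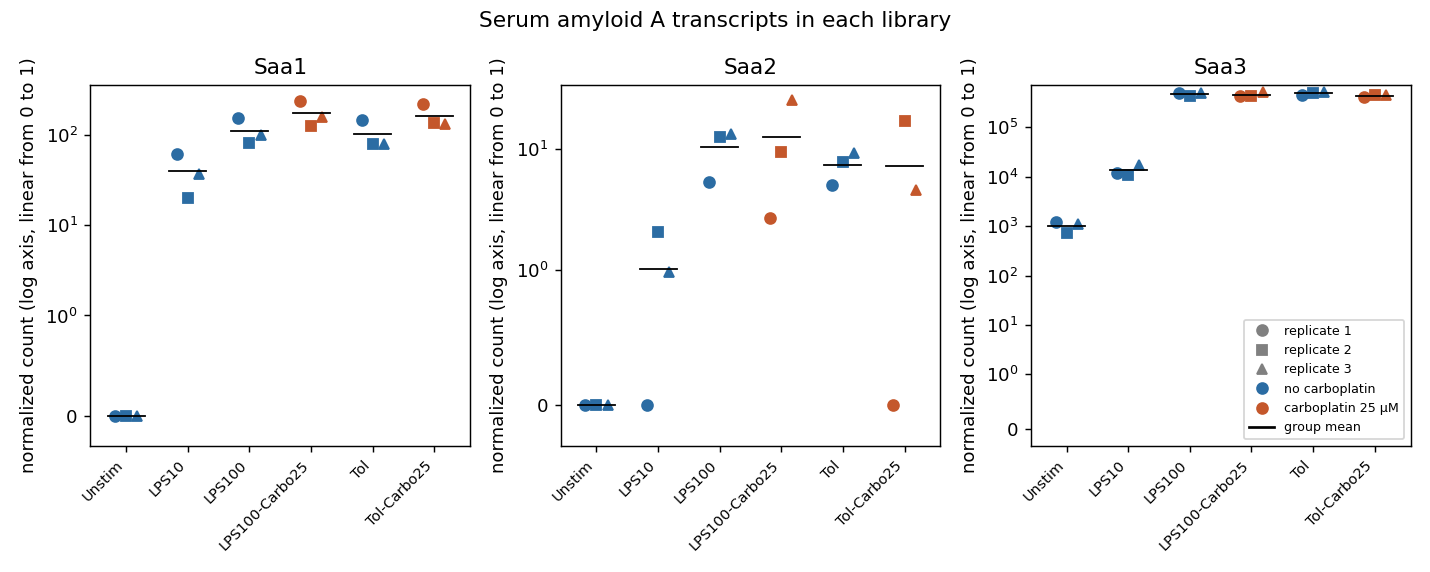
Normalized counts of Saa1, Saa2 and Saa3 (vertical axes, logarithmic above 1 and linear from 0 to 1) in each of the 18 libraries by group, with replicates as marker shapes, carboplatin in orange and group means as black bars. Saa1 and Saa2 sit at 0 in Unstim, while Saa3 moves from a mean of 1026 in Unstim to 13514 in LPS10 and to between 435426 and 484963 in the 4 primed groups.

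Saa1 and Saa2 differed between replicates in opposite ways. Replicate 1 had the highest normalized count of Saa1 in 5 of 5 LPS groups and the lowest of Saa2 in 5 of 5. Summed over these groups, Saa2 made up 11 of the counts beside 663 of Saa1 in replicate 1, which is 1.63% of both (95% exact binomial interval 0.818% to 2.90%). Its share was 9.68% (7.22% to 12.6%) in replicate 2, with 48 counts beside 448, and 9.31% (7.07% to 12.0%) in replicate 3, with 54 beside 526. These intervals cover counting error only, and the pattern was noticed after the counts were seen. For Saa3, replicate 1 was the highest in 1 group and the lowest in 3. The labels give the replicates a number and nothing more, and what else differed between them was not tested.

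Saa1 stood in a different proportion to Saa3 after the short and the long exposure. Within LPS10 libraries there were 0.517, 0.183 and 0.214 counts of Saa1 per 100 counts of Saa3. In LPS100 these ratios were 0.0315, 0.0192 and 0.0208, and in Tol 0.0331, 0.0162 and 0.0153. Each LPS10 library was above each library of the primed groups, among which the highest ratio was 0.0562 in replicate 1 of LPS100-Carbo25. The ratio averaged 0.304 ± 0.185 in LPS10 and 0.0238 ± 0.0067 in LPS100 (SD, n = 3). It averaged 0.0388 ± 0.0151 in LPS100-Carbo25 and 0.0383 ± 0.0140 in Tol-Carbo25. On a scale of CPM per kb of exon, the mean level of Saa3 in LPS100 was 16091 and that of Saa1 4.57, a ratio of 3518, which became 3843 with the longest transcript and 3133 with the canonical transcript as length.

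**Figure D2:**
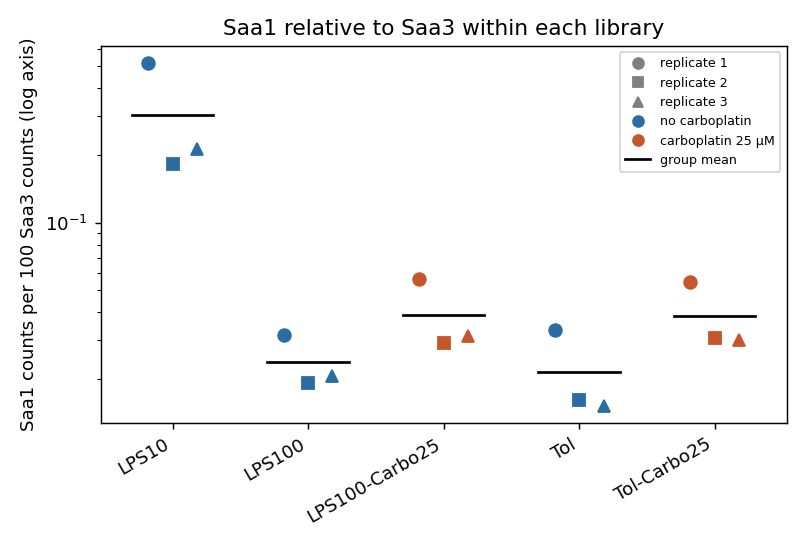
Counts of Saa1 per 100 counts of Saa3 in each library (vertical axis, logarithmic) for the 5 groups given LPS, with replicates as marker shapes, carboplatin in orange and group means as black bars. The 3 LPS10 libraries lie between 0.183 and 0.517, above all 12 primed libraries, and replicate 1 is the highest point of each group.

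The mean level of all 3 members was higher in BMDMs primed with LPS, and that of Saa1 and Saa3 also after the single dose. For Saa3 the log2FC was 8.83 (SE 0.27) for LPS100 minus Unstim and 3.72 (SE 0.21) for LPS10 minus Unstim, or 456-fold and 13.2-fold. Because Saa1 and Saa2 were at 0 in Unstim, their folds were set against a floor of 3 counts per library. Saa1 was at least 41.9-fold higher in LPS100 and at least 14.8-fold higher in LPS10. Saa2 was at least 3.84-fold higher in LPS100, and no fold is given for LPS10, where it stayed at or under the floor. Over all genes, 7.47% of the 11305 tested were called (edgeR, |log2FC| > 2 and adjusted p under 0.05) in LPS100 minus Unstim and 12.0% in LPS10 minus Unstim, and nothing is read from the members against these shares because the same contrasts chose them.

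After a second LPS dose the members stayed near the level of primed cells. In Tol minus LPS10, the comparison by which tolerance is usually defined, Saa3 had a log2FC of 5.17 (SE 0.23) and Saa1 of 1.38 (SE 0.42), with no overlap between groups and the Tol library higher in 3 of 3 same-numbered pairs for each gene. For Saa2, 22 counts in Tol stood against 4 in LPS10, a ratio of 6.21 (95% interval from counting alone 2.11 to 24.8). In Tol minus LPS100, which compares primed cells with and without the second dose and change of medium, the log2FC was 0.05 (SE 0.19) for Saa3 (-0.05 with scaling by library size alone), -0.15 (SE 0.40) for Saa1 and -0.47 (SE 0.88) for Saa2, and the groups overlapped for each. Saa1 and Saa2 were lower in Tol in 3 of 3 pairs, whereas Saa3 was higher in 2 of 3. Across all tested genes, 8.04% were called in Tol minus LPS10 and 0.681% in Tol minus LPS100. The comparisons share groups, so their values are not independent of each other.

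With carboplatin, Saa1 was higher in every same-numbered pair and Saa3 was close to its level without the drug. In LPS100 the ratio of normalized Saa1 counts with to without carboplatin was 1.56, 1.54 and 1.57 in replicates 1, 2 and 3. In Tol it was 1.52, 1.73 and 1.68. The fitted log2FC was 0.63 (SE 0.39) in LPS100 and 0.70 (SE 0.39) in Tol. With the replicate number as a block it was 0.64 (SE 0.19) in LPS100 and 0.71 (SE 0.20) in Tol. The groups overlapped in both states because replicate 1 was high with and without carboplatin. Saa3 had a log2FC of -0.03 (SE 0.19) in LPS100, higher with carboplatin in 2 of 3 pairs, and of -0.16 (SE 0.19) in Tol, where it was lower in 3 of 3. For Saa2 the values were 0.30 (SE 0.84) and -0.03 (SE 0.91), with 1 of 3 pairs higher in each state, and both values turned on single libraries. The first was -0.69 without LPS100-Carbo25 replicate 3, -0.01 without LPS100 replicate 1 and -0.01 by limma-voom. The second was -1.49 without Tol-Carbo25 replicate 2, 0.50 without Tol-Carbo25 replicate 1 and -0.93 by limma-voom. Over all genes, 0.265% were called in LPS100-Carbo25 minus LPS100 and 0.389% in Tol-Carbo25 minus Tol, at the adjusted p under 0.25 that the study used for these comparisons.

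**Figure D3:**
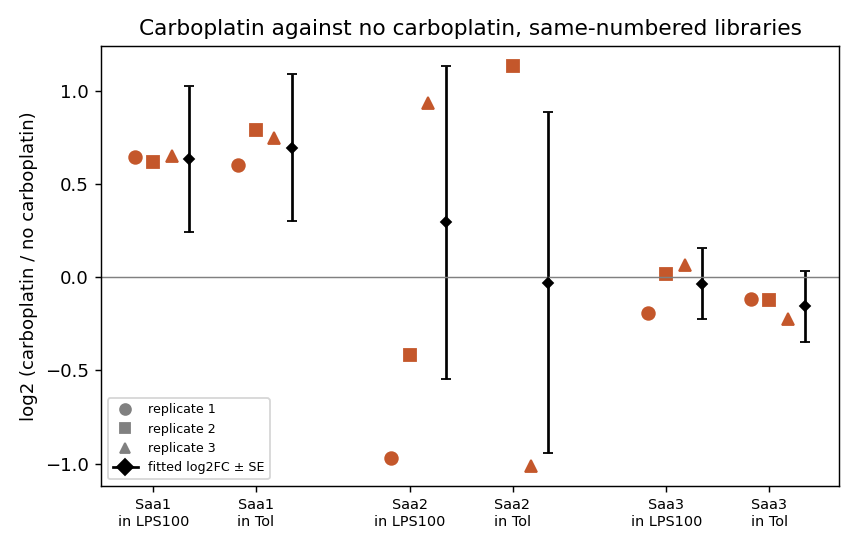
Log2 ratio of normalized counts with to without carboplatin (vertical axis) for same-numbered libraries of LPS100 and Tol BMDMs, with fitted log2FC and SE as black diamonds and bars. The 3 Saa1 points of each state lie between 0.60 and 0.79, the Saa3 points between -0.23 and 0.07, and the Saa2 points scatter on both sides of 0 (replicate 1 of Tol is not drawn, since Saa2 had 0 counts there with carboplatin).

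To place the members within their pathway, 92 other genes were followed in 6 lists, of which 73 passed the filter. The lists were chosen with earlier results of these data known. Shares of all genes called stand beside the counts as a description, and no enrichment is read from them. Counts from other fits, here and below, have no such share. In LPS100 minus Unstim, 25 of the 73 rose and 3 fell, against 7.47% of all genes called. In LPS10 minus Unstim 40 rose and 2 fell, against 12.0%. In Tol minus LPS10, 5 rose and 13 fell, against 8.04%. In Tol minus LPS100, 3 rose and 0 fell, against 0.681%, and 5 rose with the replicate number as a block. Without LPS100 replicate 1 the last count was 5, and it was 2 without LPS100 replicate 2, LPS100 replicate 3, Tol replicate 1 or Tol replicate 3. The median log2FC of the 73 genes was 1.42, 2.48, -0.68 and 0.05 in these comparisons, beside -0.02, -0.09, 0.00 and -0.01 for all tested genes. With the genes at 0 counts in Unstim set at their bounds it was 1.42 and 2.30 in the first and second.

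Of the 18 transcription regulators of SAA genes, 11 rose after LPS10. In Tol minus LPS10, 6 were called lower, a direction opposite to that of Saa3. The 6 were Socs3, Nfkbia, Nfkbiz, Nfkb1, Nfkb2 and Bcl3, the last 3 named after their values were seen. Rela, Cebpb, Cebpd and Stat3, also named in this way, were not called there (log2FC -0.68, -0.93, -1.33 and -1.13). Of the 18, 3 had a log2FC above 0. In LPS100 minus Unstim 4 rose (Socs3, Nfkbiz, Nfkbia and Cebpb) and Cebpa fell, the last pair named after their values were seen, and none was called in Tol minus LPS100. Cebpb and Cebpa encode C/EBPβ and C/EBPα and had log2FC of 2.32 (SE 0.34) and -2.10 (SE 0.32). Socs3, the feedback inhibitor of IL-6 signalling through STAT3, rose after LPS10 (log2FC 8.42, SE 0.54, adjusted p = 2.45e-09) and fell in Tol minus LPS10 (log2FC -3.06, SE 0.41, adjusted p = 2.33e-05). Nfkbia, which encodes the NF-κB inhibitor IκBα, averaged 501 ± 89.1 normalized counts in Unstim, 13356 ± 645 in LPS10, 2685 ± 160 in LPS100 and 3202 ± 784 in Tol. Nfkbiz, which encodes the nuclear IκBζ that works with NF-κB at selected promoters, averaged 110 ± 35.6, 3889 ± 1161, 627 ± 145 and 901 ± 312 in the same groups. All 3 were highest in LPS10, whereas Saa3 was higher in LPS100 and Tol than in LPS10. The median log2FC of this list was 2.17 in LPS10 minus Unstim and -1.33 in Tol minus LPS10.

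Of the 17 tested upstream cytokines and receptors, 9 rose after LPS10, and 2 fell in Tol minus LPS10 (5 with the replicate block). In LPS100 minus Unstim 6 rose and 1 fell, and 1 rose in Tol minus LPS100. The genes behind these small counts, named after their values were seen, were Lifr, the receptor of leukaemia inhibitory factor (log2FC -2.62, SE 0.52, LPS100 minus Unstim), and in Tol minus LPS10 Osmr, the oncostatin M receptor (-4.17, SE 0.79), and Tnf. Tnf fell in Tol minus LPS10 (log2FC -2.06, SE 0.29) and rose in Tol minus LPS100 (2.92, SE 0.30), with 9521 ± 4594 normalized counts in LPS10, 302 ± 45.4 in LPS100 and 2284 ± 260 in Tol. Il1b, an inducer of the hepatic acute phase, had 58967 ± 8823 normalized counts in LPS10, 15360 ± 11487 in LPS100 and 12205 ± 12275 in Tol (SD, n = 3), with the lowest value of each primed group in replicate 2. It rose in LPS10 minus Unstim (log2FC 10.18, SE 1.27, adjusted p = 4.7e-06) and did not pass in Tol minus LPS10 (log2FC -2.27, SE 0.88, adjusted p = 0.0551), but fell with the replicate block (log2FC -3.09, SE 0.54, adjusted p = 0.000132). Il1a likewise rose in LPS10 minus Unstim (log2FC 11.02, SE 1.10, adjusted p = 4.12e-07), with a log2FC of -1.91 (SE 0.69) in Tol minus LPS10, short of the fold limit, and fell there with the replicate block (log2FC -2.56, SE 0.40, adjusted p = 3.98e-05). Il6, with 0 counts in Unstim, was at least 292-fold higher in LPS10 and at least 26.1-fold higher in LPS100. Its raw counts were 116, 6 and 86 in LPS100 and 346, 14 and 63 in Tol. In Tol minus LPS10 its log2FC was -2.21 (SE 1.08, adjusted p = 0.132), and it fell with the replicate block (log2FC -2.88, SE 0.46). The list had a median log2FC of 2.77 in LPS10 minus Unstim and -1.10 in Tol minus LPS10.

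Among the 9 tested SAA receptors, Fpr2 had the values closest to those of Saa3. Fpr2 encodes a formyl peptide receptor at which SAA proteins act. Its raw counts were 11, 12 and 7 in Unstim, 142, 176 and 182 in LPS10, 3573, 2751 and 4693 in LPS100 and 2738, 3440 and 3906 in Tol. It rose in LPS100 minus Unstim (log2FC 8.71, SE 0.26, adjusted p = 5.43e-13) and in Tol minus LPS10 (log2FC 4.48, SE 0.20, adjusted p = 1.1e-10), and was the 1 receptor called in the latter. Tlr2, which encodes a Toll-like receptor for lipoproteins, averaged 1347 ± 404 in Unstim, 16357 ± 2259 in LPS10, 5437 ± 851 in LPS100 and 7571 ± 1282 in Tol. It rose in both LPS comparisons with Unstim. Cd36, a scavenger receptor that binds SAA, averaged 3699 ± 1212 in Unstim and 8525 ± 2180 in LPS100, below the fold limit (log2FC 1.20, SE 0.28). In LPS10 minus Unstim Fpr2 and Tlr2 rose and P2rx7, an ATP-gated channel named after its values were seen, fell (log2FC -2.37, SE 0.26), in LPS100 minus Unstim 2 rose, and none was called in Tol minus LPS100. The list had a median log2FC of 0.15 in LPS100 minus Unstim and 0.31 in Tol minus LPS10.

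Most other acute phase genes were not expressed at a level that could be tested, and 16 of 23 did not pass the filter. The liver products Crp, Apcs, Fga, Fgb and Fgg had 0 counts in every library. Of the 7 that were tested, all rose after LPS10 and 6 rose after LPS100, with a median log2FC of 7.17 in LPS100 minus Unstim (4.27 with the gene at 0 counts in Unstim set at its bound). In Tol minus LPS10, 3 rose and 1 fell (4 rose with the replicate block). Cfb, which encodes complement factor B, had 24.5 ± 14.3 normalized counts in Unstim, 565 ± 114 in LPS10, 7858 ± 324 in LPS100 and 6864 ± 578 in Tol. Lcn2, which encodes the iron-siderophore binding lipocalin 2, had 12.3 ± 8.25, 317 ± 63.2, 3626 ± 1022 and 3627 ± 1327. Hp, which encodes haptoglobin, had 10.9 ± 4.84, 102 ± 55.7, 1893 ± 878 and 2430 ± 1535. The 3 genes rose in Tol minus LPS10, with log2FC of 3.60 (SE 0.27) for Cfb, 3.52 (SE 0.35) for Lcn2 and 4.57 (SE 0.60) for Hp, the direction seen for Saa3. Ptx3, which encodes the pentraxin made locally by macrophages and was picked out after its values were seen, was the 1 that fell, from 76, 87 and 98 raw counts in LPS10 to 0, 1 and 1 in Tol.

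Genes of HDL, lipid efflux and SAA breakdown went both ways, with a median log2FC of -0.10 in both comparisons with Unstim and -0.17 in Tol minus LPS10. Of 11 tested, 1 rose and 1 fell in LPS100 minus Unstim, Mmp14 rose and Abcg1, a cholesterol transporter gene named after its values were seen, fell in LPS10 minus Unstim (log2FC of Abcg1 -3.07, SE 0.19), Lpl fell in Tol minus LPS10 (2 genes with the replicate block), and none was called in Tol minus LPS100. Mmp14, which encodes a membrane-bound matrix metalloproteinase, rose from 15.7 ± 2.70 normalized counts in Unstim to 3385 ± 1140 in LPS10 and 5292 ± 1356 in LPS100. Lpl, which encodes lipoprotein lipase, fell from 6752 ± 1311 in Unstim to 502 ± 78.3 in LPS100 (log2FC -3.75, SE 0.40, adjusted p = 2.1e-06). Abca1, which encodes the cholesterol efflux transporter that loads HDL, averaged 1294 ± 858 in Unstim and 4645 ± 1282 in LPS100 and was below the fold limit (log2FC 1.84, SE 0.46).

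Of 11 genes that SAA proteins are known to induce in myeloid cells, 10 rose after LPS10 and 6 after LPS100 (8 with the replicate block). In Tol minus LPS10, Mmp9 rose and Il23a, Ptgs2 and Il33 fell, and in Tol minus LPS100, Ccl3 and F3 rose (4 genes with the replicate block). All of these but Il33 were named after their values were seen. Mmp9 encodes a secreted gelatinase, Ptgs2 a cyclooxygenase, Ccl3 a chemokine and F3 tissue factor, and their log2FC were 4.66 (SE 0.70), -3.45 (SE 0.64), 2.74 (SE 0.35) and 2.57 (SE 0.73) in these comparisons. Cxcl1 and Cxcl2, chemokines that draw neutrophils, rose in LPS10 minus Unstim with log2FC of 9.61 (SE 0.98) and 8.23 (SE 0.61), and in LPS100 minus Unstim with 6.58 (SE 0.91) and 6.04 (SE 0.56). Il33, which encodes an IL-1 family cytokine and had 0 counts in Unstim, was at least 69.5-fold higher in LPS10 and fell in Tol minus LPS10, where its counts were 7, 0 and 5. The median log2FC of the list was 7.13 in LPS10 minus Unstim (6.12 with the genes at 0 in Unstim at their bounds) and -0.79 in Tol minus LPS10. These genes respond to LPS directly, and the part of SAA proteins in their levels was not tested.

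No pathway gene was called with carboplatin in either state by edgeR, DESeq2 or limma-voom. Of all 11305 genes edgeR called 0.265% in LPS100 and 0.389% in Tol, so 0 of 73 is near the share of all genes. The unadjusted counts and the replicate-block calls that follow have no share of all genes beside them. Nothing is read from them about the pathway genes. At an unadjusted p under 0.05, edgeR had 3 of 73 in LPS100 and 4 in Tol, DESeq2 5 and 5 (of 84 with a p), and limma-voom 2 and 2. With the replicate number as a block, 19 and 10 of the 73 had an unadjusted p under 0.05, and 1 gene was called in each state, both higher: Il23a, a cytokine subunit, in LPS100 (3 to 6 counts against 0 to 1) and the receptor gene Ager in Tol (11 to 34 counts against 2 to 7). The medians of the 73 log2FC were 0.05 and 0.03, beside 0.01 and 0.01 for all genes. The difference between the carboplatin effects in Tol and in LPS100 was called for 0 of the 73 genes by edgeR, which is 0.00% of all 11305 genes called, with 0 at an unadjusted p under 0.05 (1 with the replicate block and 0 by limma-voom).

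**Figure D4:**
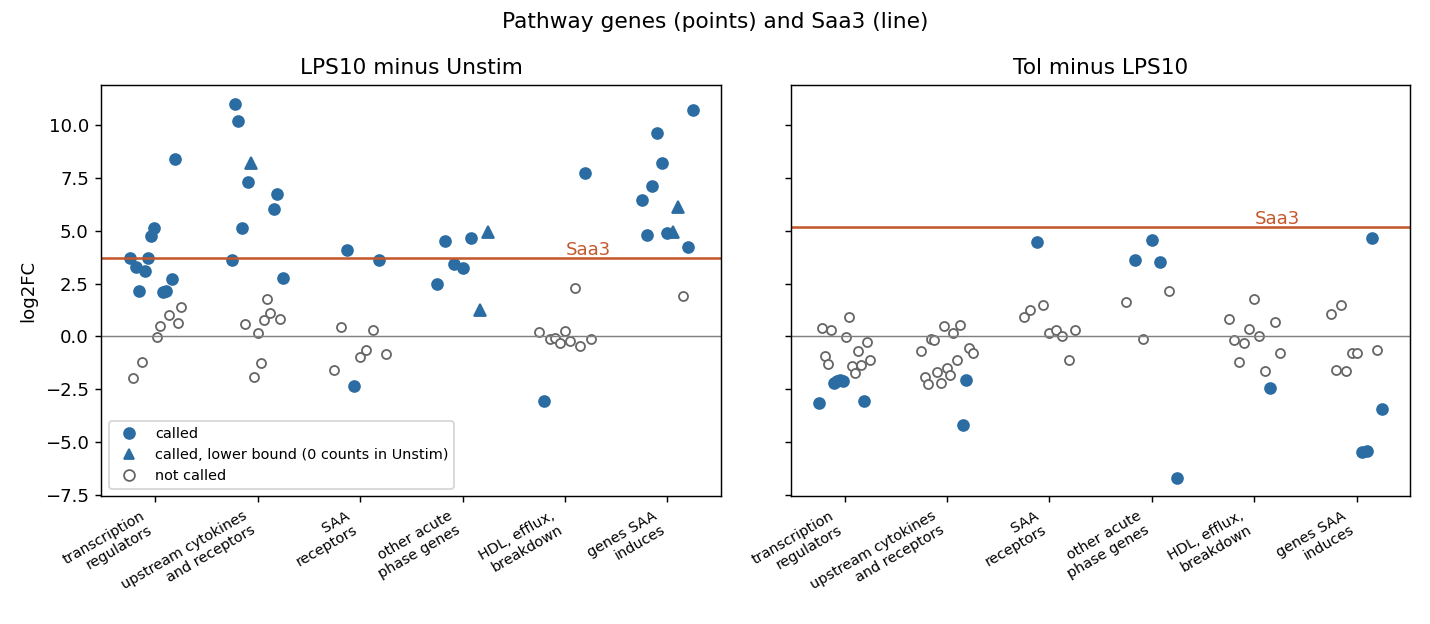
Log2FC (vertical axis) of the 73 tested pathway genes by list in LPS10 minus Unstim (left) and Tol minus LPS10 (right), filled where called, as triangles at their lower bound where Unstim had 0 counts, and with Saa3 as an orange line. In the right panel Saa3 stands at 5.17, with Mmp9 at 4.66, Hp at 4.57 and Fpr2 at 4.48 the nearest below it, while the 6 called transcription regulators lie below 0.

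Neighbours of the cluster did not share the size of the Saa3 difference. Within 200 kb of a member, 30 genes are annotated and 13 were among the counted symbols, 3 of them members. Of the 10 others, 7 passed the filter and 1 was called in any of the 6 comparisons. This was Ldha, which encodes lactate dehydrogenase A and starts 125 kb from the start of Saa3, and which rose in LPS100 minus Unstim (log2FC 2.56, SE 0.21, adjusted p = 1.26e-07). Over all genes, 7.47% were called in that comparison, and nothing is read from 1 of 7 against this share. Saal1, next to Saa3, is named for its similarity to SAA and was lower in Tol than in LPS10 (log2FC -1.16, SE 0.25, adjusted p = 0.00182), below the fold limit and opposite in sign to Saa3. Hps5, Gtf2h1, Tsg101, Uevld and Sergef had log2FC between -0.75 and 0.37 in the comparisons among Unstim, LPS10, LPS100 and Tol. Tph1 and Ldhc had 0 counts in every library and, like Saa4, did not pass the filter.

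The genes whose log2 levels followed Saa3 most closely over the 18 libraries were Fpr2 (Pearson r = 0.996), Cfb (0.988), Irak3 (0.988), Fpr1 (0.988), Fbxo22 (0.987), Sgms2 (0.987), Adgb (0.986), Cd38 (0.986), Cd302 (0.985) and Pgk1 (0.985), of 11304 genes. These r are a description over libraries that share depth and fall into few levels, and 58 genes had r over 0.95. The 10 genes differed in size of change. Mean normalized counts went from 8.90 in Unstim to 3772 in LPS100 for Fpr2 and from 295 to 644 for Fbxo22, an F-box subunit of a ubiquitin ligase. Irak3, which encodes a kinase-like inhibitor of Toll-like receptor signalling, went from 305 to 3145, and Cd38, which encodes an NAD-consuming surface enzyme, from 2.09 to 1650. In Tol the means of Fpr2, Irak3, Cd38 and Pgk1, a glycolytic enzyme gene, were 3486, 2705, 1109 and 13611. Saa1 ranked 76 in this order (r = 0.938, Spearman's rho = 0.588) and Saa2 ranked 542 (r = 0.760, rho = 0.804).

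**Figure D5:**
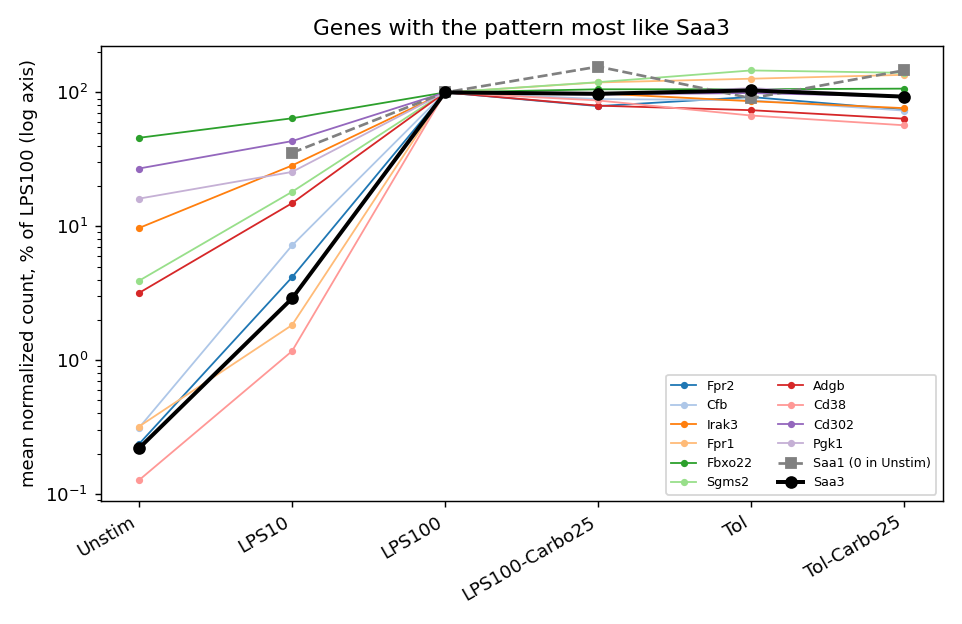
Mean normalized count of Saa3, of the 10 genes with the highest r to it and of Saa1 in each group, as percent of the mean in LPS100 (vertical axis, logarithmic). Saa3 (black) and the 10 genes (thin lines) are lowest in Unstim, intermediate in LPS10 and highest in the 4 primed groups. Not all are level there: the mean of Cd38 went from 1650 in LPS100 to 938 in Tol-Carbo25, and that of Sgms2 from 279 in LPS100 to 407 in Tol. Saa1 (grey, dashed, 0 in Unstim) is highest in the carboplatin groups.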

How the data were processed

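RNA-Seq read pairs of 18 BMDM libraries (3 biological replicates in each of 6 groups, read from the sample titles and treatment labels) had been aligned to GRCm39 with HISAT2 and counted with HTSeq by the authors. The deposited values are raw counts per gene symbol, without normalization, of stranded mRNA libraries. Program versions, annotation and strand option are not given in the sources used here. Between 41.5% and 46.9% of read pairs per library were in rows that name no gene, and these rows were left out, with 4.21% to 5.18% aligned to more than 1 place.

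Counts were fitted with edgeR 4.0.16 (R 4.3.3) in all 18 samples, 1 mean per group, with TMM normalization and the expression filter (minimum count 10, total 15). The quasi-likelihood test was used with Benjamini-Hochberg adjustment over 11305 genes, at |log2FC| > 2 and adjusted p under 0.05 (LPS) or 0.25 (carboplatin), and the prior count was 0.125. Each SE is |log2FC| over the square root of the F statistic of this test. Normalized counts are counts over effective library size, times its mean. Folds against groups at 0 used a floor of 3 counts per library. The fit was tested on simulated data with known changes. Alternatives were DESeq2 1.42.0, limma-voom (limma 3.58.1), RLE or library size scaling, Saa3 left out of totals, other filters and limits, fits of 6 samples, leaving out each sample, a prior count of 2, the replicate block and, added after seeing the data, leaving out replicate 2 of every group and canonical transcript lengths. Same-numbered samples, after removal of group means, correlated at 0.183 to 0.574 in all 18 pairs. In 17 of 18 pairs this r was above that with any other number. The exception was replicate 2 of LPS10 minus Unstim (0.237, with 0.261 for another number). The numbers were therefore taken to pair the samples, which the main fit leaves out and the replicate block includes. Likeness is Pearson r of log2 CPM (prior count 2).

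The members and gene lists were chosen with earlier results of these data known. Named were the members, Saa4, all genes within 200 kb, the 10 genes most like Saa3, and from each list the 3 tested genes with the largest |log2FC| in LPS100 minus Unstim, and any called with carboplatin. Others were named after their values were seen. Positions are those of GENCODE vM39, in which 90.0% of the symbols were found. Motif and identity counts used Python 3.11.15 and Biopython 1.88.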

Additional observations from a re-analysis of the deposited data

How the results depend on the processing

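The members' log2FC and bounds kept their values to within the spread between replicates in 240 of 242 recalculations. The exceptions were Saa2 in Tol-Carbo25 minus Tol without Tol-Carbo25 replicate 2 (-1.49) and without replicate 2 of every group (-1.47), against -0.03. Leaving out 1 sample or replicate 2 gave -1.49 to 0.50 for this value, and -0.69 to 0.73 for Saa2 in LPS100-Carbo25 minus LPS100. For Saa2 the spread was wide, with an SD of 0.999 and 1.255 in these 2 comparisons. Values of either sign therefore stayed within it, as did -0.93 by limma-voom in Tol-Carbo25 minus Tol. Fitted log2FC of Saa1 and Saa2 against groups at or near 0 depended on the prior count and were replaced by bounds or ratios. With library size alone, the median of all genes moved to -0.26 in LPS100 minus Unstim, -0.43 in LPS10 minus Unstim and -0.11 in Tol minus LPS100, where Saa3 went from 0.05 to -0.05; with Saa3 left out of the totals it was 8.90, 3.79 and 0.07 in these comparisons. The count of pathway genes called in LPS100 minus Unstim was 28, but 46 with no log2FC limit and 15 where every sample had at least 10 counts (53 genes tested). In LPS10 minus Unstim it was 42, and 27 with that filter. In Tol minus LPS10 it was 18, but 34 at |log2FC| over 1, 41 with no limit and 9 with that filter. In Tol minus LPS100 it was 3, but 6 at |log2FC| over 1, 7 with no limit, and 5 with no filter, with DESeq2, with the replicate block and without LPS100 replicate 1, and 2 to 5 on leaving samples out. With carboplatin it was 0 in each state and 1 in each with the replicate block, which moved the counts of the other 3 comparisons over the 6 lists together by less than 1.5 times. Counts of pathway genes under settings other than the main one have no share of all genes beside them. They show how the count moves with the setting, and nothing is read from them about the lists. The filter on every sample left Saa1 and Saa2 untested and gives no value for them. Counts of Saa2 below about 10 limit any statement on its order.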
